A study of Mus musculus with 8 samples.

Results

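The comparison described here set mouse erythroid progenitors in which an RNA-binding protein was knocked down and which were cultured with dexamethasone (DEX) against progenitors carrying a control virus and cultured without it. It holds 6 of the 8 arrays of the series, chosen by their titles: 2 arrays of shRNA1 with DEX, 2 of shRNA2 with DEX and 2 of the control virus without DEX. The question it addresses is how much of the change seen with the hormone is still present when the protein is knocked down. The cells came from the liver of E14.5 embryos of the C57BL/6 strain. Per the labels, magnetic depletion took out cells with lineage, Sca-1, CD41, CD34 and other markers of non-erythroid cells, and a sort then kept cells with c-kit and the lowest CD71. They were transduced, and RNA was taken on day 3 of culture. All groups thus share the sort and a viral transduction, and they differ from the control in both the hairpin and the hormone. A knockdown without DEX is not analysed here, so the contribution of the hairpins and that of DEX to a difference cannot be told apart within these 6 arrays. The labels name neither the protein nor the hairpin sequences. Here it is taken to be Zfp36l2, which is known from the published work and not from the labels. No label says that the replicates were separate cultures or animals, so a p-value covers only the spread between arrays, part or all of which may be technical.

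Dexamethasone is a synthetic glucocorticoid. It binds the glucocorticoid receptor, a nuclear receptor which its chaperones hold in the cytoplasm until the hormone arrives, and which then moves to the nucleus and binds DNA at paired short motifs. Among its well-known targets are Fkbp5, which damps the response itself, Tsc22d3, the clock gene Per1 and the metallothioneins. In early erythroid progenitors, glucocorticoids are known to favour self-renewal over maturation. Proteins of the ZFP36 family bind AU-rich elements in mRNAs and promote their decay.

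The 6 arrays were of unequal brightness. The 75th percentile of the signal lay between 476.2 and 521.6 on the knockdown arrays of slide 1, at 1003 on the control array of that slide, and between 1439 and 1923 on the 3 arrays of slide 2. The replicate number of an array is its slide. Between 59.5% and 62.4% of spots were well above background on each of these 6 arrays, and 0 were saturated. The knockdown arrays of slide 1 stood apart: over the 18856 genes tested they correlated with the slide 2 arrays at 0.924 to 0.944, against 0.984 to 0.99 among the slide 2 arrays and 0.977 with each other. The control array of slide 1 did not share this. It correlated with the slide 2 arrays at 0.971 to 0.981 and with the knockdown arrays of its own slide at 0.962 and 0.956. Differences within slide 1 therefore still carry what set its knockdown arrays apart, and a slide block does not take it out. Values are given as the 4 differences between a knockdown array and the control array of its own slide. Their order is shRNA1 slide 1, shRNA1 slide 2, shRNA2 slide 1 and shRNA2 slide 2. The 2 differences of a slide share their control array, so they are not independent. Erythroid identity genes were present throughout: Gata1, Klf1, Epor, Tfrc, Kit, Hba-a1, Alas2 and Slc4a1 were well above background on 6 of 6 arrays.

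Zfp36l2 lay close to its level in untreated control cells when it was knocked down in the presence of DEX. Levels are log2 signals relative to the array's 75th percentile. The gene was at 3.49 and 3.85 in the control without DEX, at 4.09 and 3.92 with shRNA1 and at 4.12 and 3.70 with shRNA2. The ranges overlap, and the difference was 0.29 (SE 0.32; limma adjusted p = 0.988). In control virus cells given DEX, which are not part of the comparison, it was at 5.55 and 5.42, above all 4 knockdown arrays. Against those cells the difference was -1.53 (SE 0.27) on the log2 scale, which limma did not call (adjusted p = 0.971; 0.416 in the blocked fit). Its relative Zfp36l1 differed by -0.26 (SE 0.29).

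Many genes differed strongly and in the same way on every array, although the test over these 6 arrays called none. In limma without a block, 0 of 18856 genes passed an adjusted p below 0.05 (0%), with 433 at an unadjusted p under 0.05 and a smallest adjusted p of 0.432. Adding the slide to limma's model also gave 0 calls (0%), with 1752 at an unadjusted p under 0.05 and a smallest adjusted p of 0.0853. At least 2-fold higher in all 4 within-slide differences were 159 genes (0.843% of those tested), and 65 were at least 2-fold lower (0.345%). Differences of the same sign in all 4 were found for 2811 genes above the control (14.9%) and 2439 below it (12.9%). All 4 knockdown arrays lay above both control arrays for 792 genes (4.2%) and below both for 749 (3.97%). With so few arrays, a shared sign or a lack of overlap can arise with no difference between the groups. Whether these shares exceed those expected by chance was not tested, so a lack of overlap alone is weak evidence for a gene. Of the 2-fold lists, 140 of the higher and 54 of the lower entries have a gene symbol. For 26 of the 159 the control was not well above background on either array, and for 18 of the 65 the knockdown was not on any. Such genes were tested only because the group where they were high passed the filter, so their direction is in part built in.

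A fit that estimates the spread from all 8 arrays, with the slide as a block, called 61 genes for the same contrast. It borrows the control arrays with DEX for the spread and the slide effect, and it was added after the data were seen. In it 42 genes rose (0.223%) and 19 fell (0.101%), and 58 of the 61 are among those 2-fold in all 4 differences. The limma count depended on single arrays. Leaving out shRNA1 replicate 1 or 2, or replicate 1 or 2 of the control with DEX, gave 0 each time, and leaving out replicate 1 of the control without DEX gave 1. Without its replicate 2 the count was 25, and without shRNA2 replicate 1 it was 97. The 2-fold counts differed between the slides: slide 1 alone gave 2044 higher and 855 lower genes, and slide 2 alone gave 251 higher and 505 lower. With both slides, the higher count was 239 without shRNA1 replicate 2 and 273 without shRNA2 replicate 2, and the lower count was 111 without shRNA2 replicate 1. With a slide or an array left out, fewer than 4 differences had to pass. Such counts could therefore not be lower than those from all 4. The share of the calls that were higher was 68.9%, against 56.7% of 90 with median scaling, 58.8% of 17 with quantile scaling and 56.2% of 16 in the authors' log2 values. It was 78.4% of 88 with a normexp background correction in which aberrant local backgrounds were replaced, and 78.1% of 73 without shRNA2 replicate 2.

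Known glucocorticoid receptor targets were mostly higher in the knockdown cells with DEX than in untreated control cells. The list of these targets was drawn up with earlier results of these data known, so its excess over all genes is not independent support. Of 35 members measured (38 in the list) 27 were higher and 8 lower (77.1% higher, against 50.5% of all genes), with a median difference of 0.74 against 0.01 for all genes. The median was 0.92, 0.27, 0.93 and 0.22 in the 4 differences, so it was larger on slide 1. At least 2-fold higher in all 4 were 6 members, Mt2, Rasd1, Hif3a, Fkbp5, Per1 and Map3k6, and 0 were 2-fold lower in all 4; over all genes the share 2-fold higher was 0.843%. All 4 knockdown arrays lay above both controls for 13 members and below both for 2, against 4.2% and 3.97% of all genes. The all-array blocked fit called 3 of them as higher, Mt2, Rasd1 and Hif3a (0.223% of all genes were called higher), and the fits of the 6 arrays called 0. Of 16 alternatives of that fit, 5 called Mt2, 4 Rasd1 and 3 Hif3a; none of these genes was called without shRNA1 replicate 1 or 2 or without any 1 of the 4 control arrays.

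**Figure D1:**
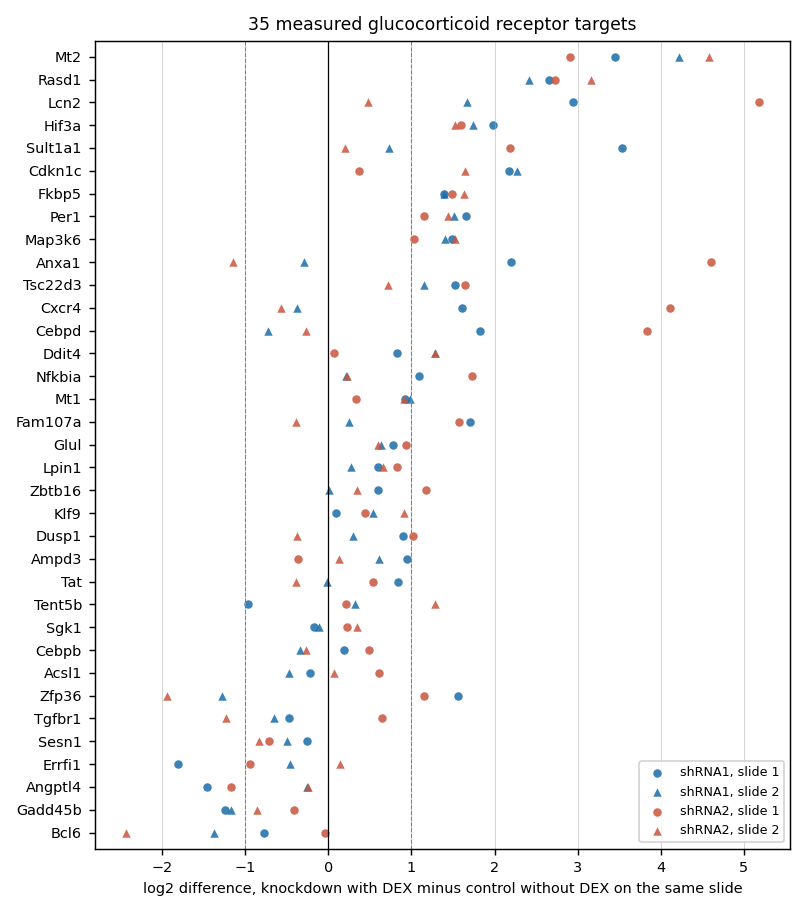
Differences of the 35 measured glucocorticoid receptor targets, 1 row a gene, sorted by their mean. The horizontal axis is the log2 difference between a knockdown array with DEX and the control array without DEX on the same slide; colour marks the hairpin, circles slide 1 and triangles slide 2, and dashed lines mark 2-fold. Mt2, Rasd1, Hif3a, Fkbp5, Per1 and Map3k6 lie beyond 2-fold with all 4 points, while Anxa1, Cxcr4 and Cebpd are spread between the slides.

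Mt2, a metallothionein that binds zinc and copper, had the largest difference of the list. Its level was 3.80 and 2.72 in the control, 7.26 and 6.94 with shRNA1 and 6.72 and 7.31 with shRNA2. Every knockdown array thus lay well above both controls, by 3.79 on the log2 scale (SE 0.44), which is 13.9-fold; limma's adjusted p was 0.453 over the 6 arrays and 0.0352 in the all-array blocked fit. The probe of Mt2 lies on the plus strand at chr8:96697371-96697430 (mm9, the build of the files). The neighbouring metallothionein Mt1 was already high in the control, at 6.66 and 6.45, and lay between 7.0 and 7.58 in the knockdown arrays. Its difference was 0.79 (SE 0.30), with no overlap between the groups and no call in any of these fits.

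Rasd1 encodes a Ras-related protein first described as induced by dexamethasone. It was at -5.69 and -7.31 in the control, where 1 of 2 arrays was well above background, and at -3.04, -4.89, -2.97 and -4.15 in the knockdown arrays. The level was lower on slide 2 in every group, but the 4 within-slide differences lay close together at 2.65, 2.42, 2.72 and 3.16 (limma adjusted p = 0.0245 in the all-array blocked fit). The mean difference of 2.74 was -0.06 after the normexp background correction as planned, 1.25 once aberrant local backgrounds were replaced and 1.09 in the authors' values. Hif3a, a hypoxia-inducible factor subunit that can restrain its relatives, was at 2.00 and 2.44 in the control and between 3.60 and 4.17 in the knockdown arrays. Its difference was 1.71 (SE 0.32; adjusted p = 0.0355 in the same limma fit).

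The receptor targets Fkbp5, Per1, Map3k6, Tsc22d3 and Cdkn1c were higher in each knockdown array as well. Fkbp5, a co-chaperone that lowers the receptor's affinity for the hormone, had within-slide differences of 1.39, 1.40, 1.49 and 1.63. Its mean difference of 1.48 (SE 0.52) is 2.78-fold, and limma did not call it (adjusted p = 0.0995 in the all-array blocked fit). Per1, a repressor of the circadian clock, differed by 1.65, 1.51, 1.15 and 1.44 (adjusted p = 0.0594 in that limma fit). Map3k6, a stress-activated kinase, differed by 1.49, 1.40, 1.02 and 1.52. Tsc22d3, also known as GILZ and an inhibitor of inflammatory transcription, was at 1.11 and 0.95 in the control and at 2.63, 2.10, 2.76 and 1.66 in the knockdown arrays. Those groups do not overlap, but the difference with shRNA2 on slide 2 was 0.71 and so under 2-fold. Cdkn1c, which encodes the cyclin-dependent kinase inhibitor p57, differed by 2.17 and 2.27 with shRNA1 and by 0.37 and 1.65 with shRNA2.

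The pattern of the other members was mixed. Anxa1, an anti-inflammatory annexin, differed by 2.19 and 4.61 on slide 1 and by -0.29 and -1.15 on slide 2. Cxcr4, a chemokine receptor, and Cebpd, a transcription factor of myeloid cells, showed the same split. Lcn2, a siderophore-binding protein that is also a granulocyte marker, was higher in all 4 differences but unevenly, at 2.94, 1.67, 5.18 and 0.47. Glul, glutamine synthetase, was higher by 0.74 (SE 0.32) without overlap. Sgk1, a kinase induced by steroids in many cell types, was at -2.30 and -2.90 in the control and between -3.01 and -2.08 in the knockdown arrays, a difference of 0.07 (SE 0.37). Lower without overlap were Gadd45b, a stress sensor, at -0.92 (SE 0.32), and Sesn1, a sestrin, at -0.58 (SE 0.32). Bcl6, a transcriptional repressor, was at -1.16 (SE 0.93), with differences from -0.04 to -2.44.

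The promoters of the list show which members carry a receptor-type motif close to their start. The search took the 250 bases before each start site in the RefSeq table of GRCm38.p6, a build other than that of the probes, in which 30 of the 35 members had 47 windows. The motif was GNACA and TGTNC with any 3 bases between them; it reads the same on both strands. It stood in 0.387% of all 32851 windows and in 5 windows of 4 members: Map3k6, Mt1, Sgk1 and Fam107a. The short motif AGAACA, on either strand and overlapping the longer one in part, stood in 16.1% of all windows and 21.3% of those of the list. Such a match is a description of letters, not of binding. The stretches around the motif of 3 members follow 5′ to 3′ on the gene's strand, with the motif in capitals, because these 3 carry it and yet differed in how high they were. 
Map3k6, chr4:133240592-133240694, plus strand: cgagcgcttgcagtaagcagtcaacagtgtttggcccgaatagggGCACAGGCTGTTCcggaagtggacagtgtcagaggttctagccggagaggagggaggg
Mt1, chr8:94178950-94179052, plus strand: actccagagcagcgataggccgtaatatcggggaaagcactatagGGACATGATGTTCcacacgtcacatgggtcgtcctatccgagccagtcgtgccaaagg
Sgk1, chr10:21993657-21993759, plus strand, 1 of 6 windows of the gene: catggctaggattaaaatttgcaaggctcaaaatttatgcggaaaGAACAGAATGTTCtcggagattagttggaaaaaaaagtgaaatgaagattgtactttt
The motif begins 181 bases before the start of Map3k6, 94 before that of Mt1 and 188 before that start of Sgk1. Map3k6 was 2-fold higher in all 4 differences, Mt1 was higher in all 4 but by less than 2-fold, and Sgk1 differed by less than its error. Mt2, Rasd1 and Hif3a, which had larger differences, do not hold these letters in their windows.

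The genes with the smallest p in the blocked fit included, beside the receptor target Rasd1, proteases, a receptor kinase and a guanine nucleotide exchange factor. The 9 higher genes, Rasd1 with them, and the 10 lower genes named here were among those with the smallest p with the slide as a block among genes with a symbol and no overlap between the groups. All 19 passed in the all-array blocked fit (limma adjusted p from 0.0182 to 0.0458), and 0 did in the 6-array fits. The all-array fit holds the same 6 arrays and the same block by which these genes were picked, so passing it is not independent support. For 4 of the higher genes the control was not well above background, so their folds are lower bounds. A bound sets the knockdown mean against, on each control array, the higher of the probe's own level and the lowest level well above background.

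**Figure D2:**
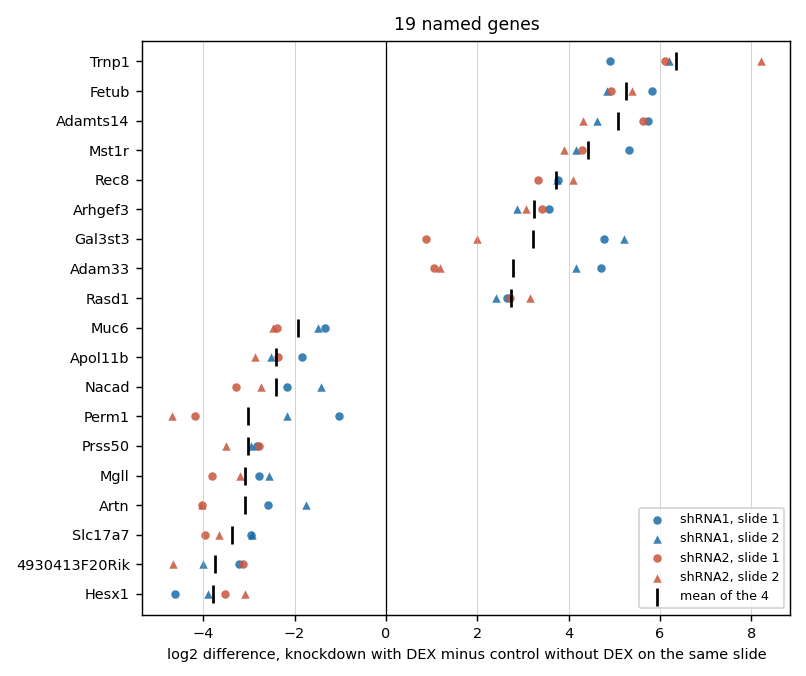
Differences of the 19 named genes, 1 row a gene, sorted by their mean (black bar). The horizontal axis is the log2 difference between a knockdown array with DEX and the control array without DEX on the same slide; colour marks the hairpin, circles slide 1 and triangles slide 2. All 4 points of a gene lie on the same side of 0; where a group was not well above background (Trnp1, Fetub, Adamts14, Gal3st3, Slc17a7 and 4930413F20Rik) the plotted difference is that of the measured signals and not a fold.

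Trnp1, a nuclear protein known from cortical progenitors, was at -6.82 and -6.58 in the control and at -1.92, -0.38, -0.71 and 1.63 in the knockdown arrays. It was at least 61.4-fold higher, with its probe at chr4:133047017-133047076 on the minus strand (mm9); a further probe of the gene gave 3.82 on the log2 scale against 6.36. Fetub, a plasma protease inhibitor of the fetuin family, lay between -2.43 and -0.66 with knockdown and DEX against -6.49 and -7.26, and was at least 25.3-fold higher. Adamts14, a protease that processes procollagen, was at least 18.1-fold higher, with knockdown levels from -3.11 to -1.20 against -6.94 and -7.44. For these 3 genes all knockdown arrays lay above both controls. They were tested only because knockdown arrays were well above background, so that order is in part built in by the filter.

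Genes that the control arrays measured were higher on every knockdown array too. Arhgef3, a guanine nucleotide exchange factor, was at -1.51 and -1.40 in the control and at 2.06, 1.48, 1.91 and 1.66 in the knockdown arrays, which is 3.23 higher on the log2 scale (SE 0.33). Rec8, a cohesin subunit best known from meiosis, was at 3.00 and 0.72 in the control and between 4.47 and 6.76 in the knockdown arrays. Its level differed between slides within every group while its within-slide differences were 3.76, 3.75, 3.33 and 4.09. Mst1r, the receptor tyrosine kinase RON, showed the same pattern, with differences of 5.32, 4.16, 4.29 and 3.90, and was well above background on 1 of 2 control arrays. A test that leaves the slide in the error gave SEs of 0.99 for Rec8 and 1.43 for Mst1r, and with the slide as a block they were 0.26 and 0.31.

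In a pair of the higher genes the hairpins gave unequal values. Adam33, a membrane-anchored metalloprotease, was higher by 4.72 and 4.16 with shRNA1 and by 1.06 and 1.19 with shRNA2. Gal3st3, a sulfotransferase, was at -8.25 and -8.64 in the control, at -3.48 and -3.42 with shRNA1 and at -7.38 and -6.64 with shRNA2; only the shRNA1 arrays were well above background, and the bound over all 4 was 2.08-fold. Gal3st3 was thus tested only because of the shRNA1 arrays, so a higher value with shRNA1 than elsewhere is in part built in by the filter. With the planned normexp the measured difference of Gal3st3 was -0.05. The difference between the hairpins was 3.32 for Adam33 and 3.57 for Gal3st3, and limma with the slide as a block called neither (adjusted p = 0.484 for each). Over all genes that contrast called 0, with 1367 at an unadjusted p under 0.05.

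The lower genes include enzymes, a growth factor and a transcription factor. Hesx1, a homeobox repressor known from pituitary development, was at -1.42 and -0.04 in the control and at -6.05, -3.93, -4.95 and -3.13 in the knockdown arrays, a 13.8-fold lower signal (log2 difference -3.79, SE 0.87; 3 of 4 knockdown arrays were well above background). Mgll, which hydrolyses monoglycerides, was at -0.50 and -0.68 in the control and between -4.31 and -3.24 in the knockdown arrays. Its difference was -3.09 (SE 0.31), and its other probes gave -2.64 and -2.79. Artn, a ligand of the GDNF family, differed by -2.59 and -1.75 with shRNA1 and by -4.02 and -4.03 with shRNA2, and 2 of 4 knockdown arrays were well above background. Prss50, a serine protease, differed by -3.02 (SE 0.56), and Nacad, a protein related to a ribosome-associated chaperone subunit, by -2.41 (SE 0.32).

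Slc17a7, the vesicular glutamate transporter VGLUT1, was at -3.56 and -5.04 in the control and not well above background on any knockdown array, and was at least 3.13-fold lower. The transcript 4930413F20Rik was likewise at least 3.75-fold lower. Perm1, a regulator of muscle metabolism, differed by -1.02 and -2.17 with shRNA1 and by -4.19 and -4.69 with shRNA2. Apol11b differed by -2.40 (SE 0.33) and the mucin gene Muc6 by -1.92 (SE 0.66). Of the 4 knockdown arrays, 2 measured Perm1, 1 Apol11b and 2 Muc6 well above background. For each of these the 4 knockdown arrays lay below both control arrays. Slc17a7 and 4930413F20Rik were tested only because the control arrays were well above background, so for them that order is in part built in.

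Further genes called in the all-array blocked fit, chosen here after their values were seen, extend both directions. Mmp2, a gelatinase, was at least 8.91-fold higher, the adhesion gene Amigo2 at least 8.88-fold and the matrix protein tenascin-R (Tnr) at least 9.12-fold. Acp5, an acid phosphatase, was at 2.79 and 2.58 in the control and at 6.31, 5.94, 4.49 and 4.96 in the knockdown arrays. The G protein subunit Gna14 was higher by 2.16 (SE 0.32) and Anxa2, an annexin, by 2.28 (SE 0.45). Among the lower, Ikzf4, a zinc finger factor of the Ikaros family, differed by -2.22 (SE 0.34) and Cdc25b, a phosphatase that activates mitotic kinases, by -1.73 (SE 0.61).

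Genes of red cell maturation lay near the control with shRNA1 and below it with shRNA2, by their medians. Red cell membrane and late erythroid genes had a median of -0.44, with 28 of 38 lower, 16 lower in all 4 differences (12.9% of all genes) and 4 below both controls without overlap (3.97% of all genes). The medians were -0.06 and -0.17 with shRNA1 and -0.86 and -0.64 with shRNA2. In control virus cells with DEX, set against the same control arrays without DEX, the median of this list was -0.71. A low median was thus also seen with DEX and no hairpin against the protein. Slc4a1, the anion exchanger of the red cell, differed by -0.01 and -0.33 with shRNA1 and by -1.20 and -2.85 with shRNA2. Trim10, which is needed for late erythroid differentiation, differed by -0.25 and -0.41, and by -1.77 and -2.56. Fn3k, an enzyme that deglycates proteins, was 2-fold lower in all 4, at -2.51 (SE 1.15), with 3 of 4 knockdown arrays well above background. None of these genes was called for the knockdown contrast (Fn3k: adjusted p = 0.0524 in the all-array blocked fit of limma), and the contrast between the hairpins called 0 genes in any of these fits.

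Haem synthesis genes had a median of -0.28, at 0.08 and 0.07 with shRNA1 and -0.51 and -0.45 with shRNA2, and 13 of 18 were lower. Their median with DEX in control virus cells was -0.55. Globins had a median of 0.41, and 7 of 11 measured were higher, but the medians of the 4 differences were 0.84, 0.29, 0.73 and -0.41. Relative to all genes their median was 0.01 with quantile scaling, -0.05 in the authors' values and -0.02 without shRNA2 replicate 1. Among them Hbq1a and Hbq1b, the theta globins, differed by -1.43 (SE 0.72) and -1.08 (SE 0.46). The embryonic globin Hbb-y, chosen after its values were seen, was 2-fold higher in all 4 differences at 4.11, 1.61, 7.65 and 2.28 (SE of the mean difference 1.68). Signal of near-identical globin copies may be shared. Erythroid regulators had a median of -0.09, with 17 of 24 lower; Sox6, a repressor of embryonic globins, was at -1.09 (SE 0.31) and Bcl2l1, which protects maturing red cells, at -0.67 (SE 0.61).

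Among early progenitor genes 17 of 26 were higher with a median of 0.15. Kit, the receptor of stem cell factor, was at 1.99 and 1.89 in the control, at 2.55 and 2.36 with shRNA1 and at 3.21 and 3.60 with shRNA2. The groups did not overlap, and shRNA2 lay above shRNA1 on both slides; the difference of 0.99 (SE 0.30) was not called by limma (adjusted p = 0.184 in the all-array blocked fit). Cd48, a surface protein of the SLAM family, was 2-fold higher in all 4 differences at 1.51 (SE 0.35; limma adjusted p = 0.0642 in that fit).

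**Figure D3:**
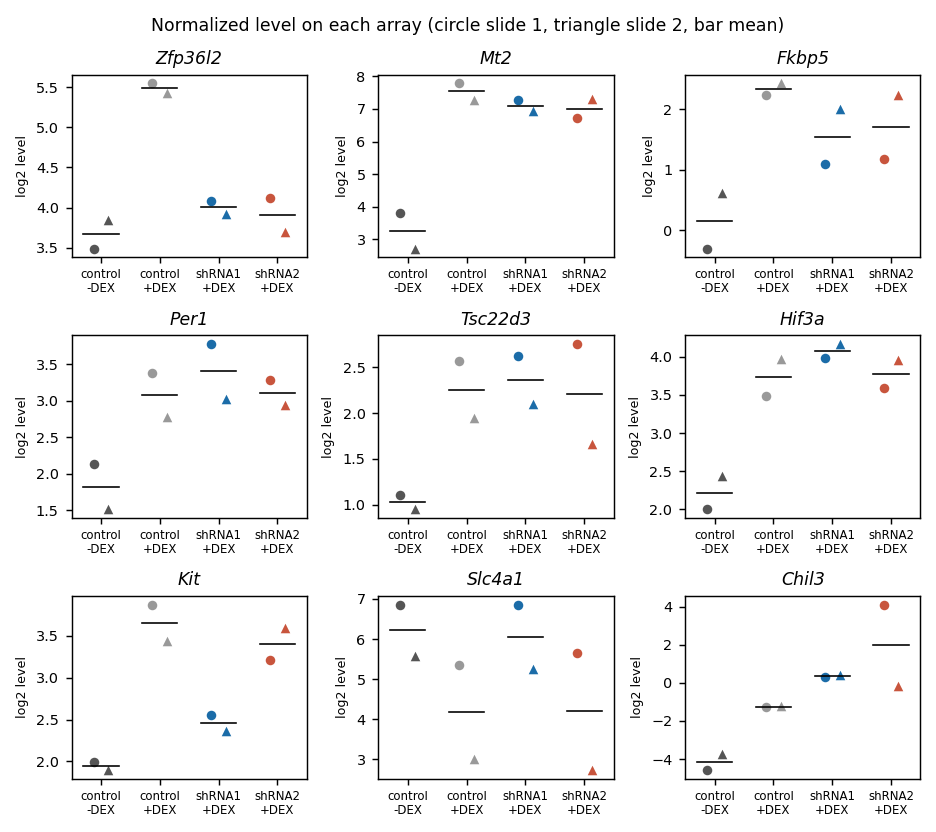
Levels of 9 genes on all 8 arrays. The vertical axes give the log2 signal relative to the 75th percentile of the array, circles are slide 1, triangles slide 2 and bars the mean of a group. Control cells with DEX are shown beside the 3 groups compared here. Zfp36l2 is highest in them, and Mt2, Fkbp5, Per1, Tsc22d3 and Hif3a are high in every group with DEX. Kit is at 2.55 and 2.36 with shRNA1 and 3.21 and 3.60 with shRNA2. Slc4a1 varies between arrays of a group, and Chil3 does so mainly with shRNA2, at 4.11 and -0.18.

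Cell cycle genes were lower on slide 1 and near the control on slide 2. All 29 S phase genes measured had a mean difference below 0, with medians of -1.18 and -1.34 on slide 1 and -0.03 and -0.10 on slide 2. Their summed level was 431 in the control array of slide 1 against 194 and 177 with knockdown, and 548 against 566 and 538 on slide 2, in multiples of the 75th percentile. G2 and mitosis genes followed, with 28 of 28 lower in the mean and medians of -0.84 and -1.30 on slide 1 and 0.01 and -0.04 on slide 2. Slbp, which binds histone mRNAs, was at -0.87 (SE 0.72), Tyms, thymidylate synthase, at -0.61 (SE 0.49) and the cyclin Ccna2 at -1.03 (SE 0.75). The means thus rest on the slide 1 arrays, which were also the dimmest; the part of brightness in this was not tested. Among cell cycle inhibitors Cdkn2a, which encodes p16 and p19ARF, was 2-fold higher in all 4 differences at 2.05 (SE 1.05).

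Interferon response genes behaved in the opposite way by slide. Their median was -0.60, with 0.04 and 0.24 on slide 1 and -1.19 and -1.60 on slide 2, and 21 of 26 were lower. Ifit1, an antiviral RNA-binding protein, was 2-fold lower in all 4 differences, at -1.55, -2.91, -1.58 and -4.37, and Rsad2, viperin, was at -2.39 (SE 2.01). Of the 4 knockdown arrays 2 measured Ifit1 and 3 Rsad2 well above background. Targets of p53 had a median of 0.22, with 13 of 23 higher. Perp, an apoptosis and adhesion gene, was 2-fold higher in all 4 at 2.23 (SE 0.62), and Pmaip1, which encodes NOXA, was at 1.57 (SE 0.55) without overlap. Hypoxia and glycolysis genes had a median of -0.18, with 20 of 28 lower, but Egln3, a prolyl hydroxylase that marks hypoxia-inducible factors for decay, was 2-fold higher in all 4 at 2.43 (SE 0.53), and P4ha2 was at 0.75 (SE 0.33; -0.13 with the planned normexp). Immediate early genes were at 0.18 in the median, with Klf2 at 1.79 (SE 1.07) and Fosl1 at 0.48 (SE 0.66; -0.01 with the planned normexp), and cholesterol synthesis genes at -0.27 (-0.35 and -0.44 on slide 1, 0.09 for each hairpin on slide 2), with Cyp51 at -0.69 (SE 0.69) and Nsdhl at -0.54 (SE 0.41). The receptor's chaperones and cofactors lay at -0.05, with Stip1 at -1.05 (SE 0.73) and Crebbp at 0.78 (SE 0.98). The gene of the receptor itself, Nr3c1, named for its role, was at -0.38 (SE 0.45).

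Granulocyte, monocyte and megakaryocyte markers had medians above 0 on slide 1 and below 0 on slide 2. Neutrophil and granulocyte precursor markers had a median of 0.97, and 18 of 19 were higher in the mean, but the medians were 1.60 and 3.80 on slide 1 and -0.23 and -0.93 on slide 2. Their summed level was 132 and 234 in the controls, 354 and 215 with shRNA1 and 758 and 141 with shRNA2, so the groups overlap. Elane, neutrophil elastase, differed by 1.15 and 3.56 on slide 1 and by -0.87 and -0.73 on slide 2, and Mpo, myeloperoxidase, did likewise. Of the 19, 4 were higher in all 4 differences and 3 lay above both controls without overlap (14.9% and 4.2% of all genes), Lcn2 and Chil3 with them. Chil3, a chitinase-like protein of myeloid cells, was at -4.59 and -3.72 in the control and at 0.30, 0.43, 4.11 and -0.18 in the knockdown arrays, at least 2-fold higher in all 4 differences. The difference was 5.32 (SE 1.19), which limma did not call (adjusted p = 0.166 in the all-array blocked fit). In such bulk samples, fewer cells of a type and less RNA per cell cannot be told apart.

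**Figure D4:**
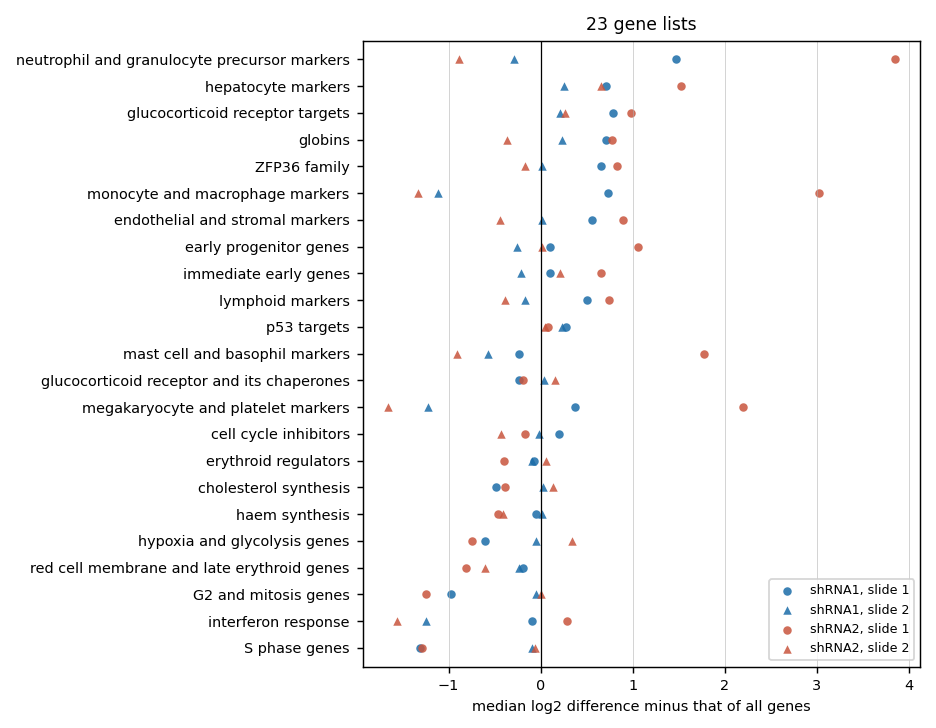
Medians of the 23 gene lists, 1 row a list. The horizontal axis is the median log2 difference of the list's measured members minus that of all genes tested, for each knockdown array with DEX against the control array without DEX on its slide; colour marks the hairpin, circles slide 1 and triangles slide 2. Glucocorticoid receptor targets lie above 0 with all 4 points, S phase and G2 and mitosis genes lie low on slide 1 and near 0 on slide 2, and granulocyte, monocyte and megakaryocyte markers lie above 0 on slide 1 and below it on slide 2.

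Monocyte and macrophage markers (13 of 22 measured) ran from 0.86 and 2.97 on slide 1 to -1.05 and -1.37 on slide 2, with summed levels of 4.76 and 9.29 in the controls and 3.44 to 25.8 in the knockdown arrays. Named by the rule, Marco was at -1.30 (SE 0.79) and Cd68 at 0.85 (SE 1.07; -0.09 with the planned normexp). Megakaryocyte and platelet markers (19 of 20 measured) ran from 0.50 and 2.15 to -1.16 and -1.70, with summed levels of 62.2 and 87.4 in the controls and 19.8 to 257 in the knockdown arrays; Itga2b was at 1.38 (SE 1.02) and Ppbp at -1.15 (SE 1.06). Anxa1, Cxcr4 and Cebpd were likewise above the control on slide 1 and below it on slide 2, while Lcn2, which is on the granulocyte list too, was higher on both. The part of other blood cells in the differences of these 4 genes was not tested.

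Of the mast cell and basophil markers 7 of 14 were measured, 4 higher and 3 lower in the mean, with a median of 0.04. Their summed levels were 7.03 and 12.1 in the controls against 17.8 to 54.2 in the knockdown arrays. Hdc and Il1rl1 made up most of each knockdown sum, so the sums do not speak for the list as a whole. Il1rl1, the receptor of interleukin-33, was 2-fold higher in all 4 at 2.95 (SE 0.48), with other probes at 1.67 and 2.24, and Hdc, histidine decarboxylase, at 2.36 (SE 0.61). The protease gene Cma1 of the same list, which was chosen after its values were seen, was lower in all 4 differences at -3.19 (SE 0.90), with 3 of 4 knockdown arrays well above background. Hepatocyte markers (7 of 20 measured) had summed levels of 1.37 and 1.39 in the controls against 1.58 to 2.57. Ahsg, fetuin-A and a relative of Fetub, was at least 10.9-fold higher with knockdown and DEX. It was not well above background in the control and was tested only because knockdown arrays were, so its direction is in part built in. Afp was at 0.90 (SE 0.79; -0.11 with the planned normexp and -0.07 without control replicate 1). Lymphoid markers (8 of 20) had a median of -0.01, with Lck at -1.36 (SE 0.39) and Cd3e at 0.56 (SE 0.63). Endothelial and stromal markers (6 of 17) had a median of 0.19, with Kdr at 0.64 (SE 0.69), and Pdgfrb at 1.51 (SE 0.34) was called in the all-array blocked fit (limma adjusted p = 0.0492; called in 1 of 16 alternatives of that fit).

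Each value can be set beside the change with DEX in control virus cells. Both comparisons use the same control arrays without DEX, so likeness between them is in part built in and is no result in itself. The 159 higher genes had a median of 2.22 here and 2.13 with DEX in control virus cells, and the 65 lower genes -2.16 and -2.29. These genes were picked for being at least 2-fold higher or lower in all 4 differences here. Their medians here follow from that choice, and genes whose change with DEX was lost with knockdown are left out. The medians thus do not show how much of the change with DEX remained. Among single genes, Mt2 was at 3.79 here and 4.28 there, Fkbp5 at 1.48 and 2.18, Per1 at 1.44 and 1.26, Hif3a at 1.71 and 1.52, Tsc22d3 at 1.26 and 1.23, and Mgll at -3.09 and -3.39. Rasd1 was at 2.74 and 4.35, Kit at 0.99 and 1.72, Gal3st3 at 3.21 and 0.42, and Lcn2 at 2.57 and 0.00. Gal3st3 passed the filter on dim probes only through shRNA1, so its larger value here is in part built in. The difference itself, knockdown with DEX against control virus with DEX, was tested in the fit of all 8 arrays. It called 0 of the genes tested, with 247 at an unadjusted p under 0.05, and 0 with the slide as a block, with 2253 (smallest limma adjusted p = 0.164 and 0.0571). In that test Rasd1 differed by -1.61 (SE 0.79), Kit by -0.73 (SE 0.27), Lcn2 by 2.57 (SE 0.90) and Mt2 by -0.48 (SE 0.41). Of the 159 higher genes, 39 lay above the control with DEX of their slide on all 4 knockdown arrays and 30 lay below it on all 4; of the 65 lower genes these were 10 and 14. Over all genes 22% lay above it on all 4 arrays and 13.8% below.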

How the data were processed

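Agilent 1-colour arrays of the 6 samples were used. Per the file headers, the authors quantified them with Feature Extraction 10.1.1.1. The deposited intensity (processed signal, linear) carries the software's own background treatment; the submitters' processing notes also name limma. The authors' deposited log2 values served as an alternative; their steps were not given here. Of 44397 spots, 1377 controls and outlier-marked spots were dropped, and 356 of 39429 probes lacked a usable spot on an array. Spots of a probe were averaged, and log2 signal minus the array's 75th percentile was used. Probes were kept if well above background on both arrays of a group, and a gene was its brightest probe (18856 genes; 3925 had several). Names came by accession for 26581 probes and from the file for 12848.

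Groups were compared with limma 3.58.1 (lmFit, eBayes) in R 4.3.3 with data.table (version 1.17.8), 1 mean per group, contrast of the hairpins' average against control, Benjamini-Hochberg adjusted p below 0.05. Plots used matplotlib. The deviations of same-numbered arrays from their group means correlated at 0.648, 0.434 and 0.842 between groups, and the replicate number is the slide, so the slide served as a block and within-slide values are given. Named genes: per direction, the 10 with the smallest blocked p, a symbol and no overlap, since none passed (1 of the higher genes is not reported here); per list, the 2 with the smallest blocked p; of receptor targets, any. The fit was tested on simulated data of 18856 genes, of which 200 were changed. At a log2 change of 1 or of 2 it called 0 of the 200, both without the slide block and with it. At a log2 change of 4 it called 114 without the block and 166 with it. A count of 0 calls in this comparison therefore does not show that log2 changes of 1 or 2 were absent. The simulation gave all groups the same slide shift and capped the spread of the most variable genes. What set the knockdown arrays of slide 1 apart was not part of it, so it may overstate what would be called here. Trnp1 (6.36) and Fetub (5.25) had measured log2 differences above 4 and were not called in the 6-array fits. The count of 0 thus does not show that larger changes were absent either. The number of arrays limits the precision. Members and lists were chosen with earlier results of these data known. Alternatives were scaling, background correction, the authors' values, no filter, arrays left out, the block and all 8 arrays.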

Additional observations from a re-analysis of the deposited data

Results flagged for a closer look

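Uros, an enzyme of haem synthesis, differed from the control in opposite directions by hairpin. It was at 0.19 and 0.03 with shRNA1 and at -1.04 and -1.09 with shRNA2, on slides 1 and 2. The difference between the hairpins was 1.18, which limma with the slide as a block did not call (adjusted p = 0.655). A further probe of the gene gave a mean difference of -0.98, against -0.48 for the probe used.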

How the results depend on the processing

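The counts of changed genes were 0 for the average of the hairpins and for each hairpin. Under the planned normexp, which does not cope with a few spots of aberrant local background, they were 16, 42 and 13, and they were 61, 25 and 41 with all 8 arrays and the replicate block; with the replicate block on the 6 arrays, with the knockdown arrays as 1 group, and with any array left out (range 0 to 0) they stayed at 0. The 2-fold counts of 159 and 65 were 93 and 29 from the authors' table, 93 and 16 once the normexp was repaired, 7 and 1 as it was planned, 2044 and 855 with slide 1 only, 251 and 505 with slide 2 only, and 166 to 2044 and 86 to 855 with 1 array left out. With a slide or an array left out fewer differences had to pass, so those counts could not fall. The shift of receptor targets above all genes (0.73) was 0.20 with the planned normexp, 0.21 with slide 2 only, 0.44 with no filter on dim probes, 0.54 with the repaired normexp and 0.50 to 0.79 with 1 array left out. The count of 61 was 17 with quantile scaling, 16 from the authors' table, 0 with the planned normexp, with no filter on dim probes and without the block, and 0 to 97 with 1 array left out; median scaling gave 90 and the repaired normexp 88. Of the 61, 43 were called with median scaling, 16 with quantile scaling and 15 in the authors' values. The planned normexp reversed Rasd1 (-0.06), Gal3st3 (-0.05), Fosl1 (-0.01), P4ha2 (-0.13), Cd68 (-0.09) and Afp (-0.11), and Afp also turned without control replicate 1 (left-out range -0.07 to 1.86). For the other changes the cause was not tested. The median of all genes (0.01) was -0.22 with median scaling, 0.18 when dim probes were kept and 0.13 after the repaired normexp. Over all alternatives, list medians and the median of all genes stayed within a limit in 319 cases and moved by more in 18. For a list the limit was the SD of its own 4 within-slide medians, and for all genes it was fixed. Lists that differ between slides thus had a wide limit. Globins counted as unmoved in the authors' values, at -0.05 against 0.41. Single genes kept their direction and side of the threshold in 1039 cases, gained a call in 4 and turned in 7. The repaired normexp, the single slides and the fit of all 8 arrays with the block were added after seeing the data. Of 23 list medians relative to all genes, 4 kept their sign under all alternatives: receptor targets, red cell membrane and late erythroid genes, and both cell cycle lists. With 2 arrays a group, the fits had 2 to 4 residual degrees of freedom.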
